A study of Mus musculus with 6 samples.

Results

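The colony-stimulating factor (CSF) receptors and ligands comprised 7 of the 38924 genes in the count tables. Among them were the ligands Csf1 and Il34, their receptor Csf1r and the G-CSF receptor Csf3r. The others were the GM-CSF receptor alpha chain Csf2ra, the beta chain Csf2rb of the GM-CSF, IL-3 and IL-5 receptors, and the IL-3-specific beta chain Csf2rb2. The 7 genes were selected by gene symbol through their Ensembl identifiers, and all had enough counts to be tested. RNA-seq counts came from microglia of WT female C57BL/6 mice, 3 at 5 weeks and 3 at 24 weeks of age, with 1 library per mouse and no treatment in either group. These mice were the controls of a Rett syndrome study, and libraries of Het mice were not analysed here. Cells were captured with CD11b beads from whole brain after removal of the meninges, so other CD11b-positive cells could be included and the preparation was not pure. Each age was sequenced in its own lane, so that age and lane cannot be told apart.

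CSF1R is a receptor tyrosine kinase that microglia and other macrophages need for survival and proliferation, and its ligands are CSF1 (M-CSF) and IL-34. In the brain IL-34 is made mainly by neurons, while CSF1 is made by glia and other cells. GM-CSF, IL-3 and IL-5 each bind an alpha chain of their own that pairs with the common beta chain encoded by Csf2rb. The mouse carries a second gene, Csf2rb2, whose product pairs only with the IL-3 receptor alpha chain. The G-CSF receptor, encoded by Csf3r, is best known from neutrophils and their precursors.

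Csf2rb2 was higher at 24 weeks in WT microglia, about 1.95-fold, and was the only one of the 7 genes to pass the test and the only one whose ages did not overlap. Csf1r, the most abundant member, had a log2 fold change of -0.24 that did not pass, and Csf1, Il34, Csf2ra, Csf2rb and Csf3r had positive changes from 0.07 to 0.51 that also did not pass. Across all genes tested, 28.8% passed the same test (15.5% rose and 13.3% fell) and 45.1% did not overlap between the ages. The count of 1 of 7 depended on a single library, since 4 of 7 genes rose when the 5-week replicate 3 was left out. In that setting 3225 of 15922 genes tested rose and 2817 fell, and 37.9% passed in either direction. Levels are given as normalized CPM, counts scaled to the gene total of each library with TMM factors, and a gene passed at an adjusted p under 0.05 in edgeR's quasi-likelihood test. All changes are 24 weeks minus 5 weeks, and errors of means are SD with n = 3 libraries per age.

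The libraries held 23198065 to 46434788 gene counts at 5 weeks and 10410625 to 13554336 at 24 weeks. Summed microglial markers (12 genes, among them Cx3cr1 and P2ry12) reached 24400 to 26500 normalized CPM at 5 weeks and 20000 to 22100 at 24 weeks, far above the neuronal markers (79.5 to 82.8 and 42.2 to 95.1). The microglial sum was thus lower at 24 weeks, where 4 of the 12 genes fell, 1 rose and 7 did not pass (median log2 fold change -0.22). At 24 weeks endothelial markers were higher (577 to 606 against 259 to 319, 8 of 10 genes rose), as were mural cell markers (314 to 349 against 162 to 195, 8 of 10 rose), and markers of border-associated macrophages were lower (515 to 618 against 1010 to 1340, 6 of 7 fell). Of all genes tested, 15.5% rose and 13.3% fell. Choroid plexus markers were abundant at both ages (7800 to 12100 and 8270 to 10200). In bulk libraries fewer cells of a type cannot be told apart from less RNA per cell. The 24-week replicate 3 had 78 counts of Xist, the RNA of the inactive X chromosome, against 31677 to 59021 in the other 5 libraries, with 0 counts on Y-linked genes in all 6. Without that library, where 20.8% of all genes passed, Csf2rb2 still passed (log2 fold change 1.03, adjusted p = 0.00411 by edgeR) and the other members had adjusted p from 0.189 to 0.868.

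Csf2rb2 and Csf2rb are near-identical neighbours, so their sequences decide whether a read can be assigned to one of them. On GRCm38, Csf2rb2 (ENSMUSG00000071714) lies at chr15:78282507-78305721 on the minus strand and Csf2rb (ENSMUSG00000071713) at chr15:78325752-78353847 on the plus strand, 20030 bases apart. Their longest transcripts in GENCODE mouse release 21 were 93.6% identical over 4528 aligned bases, and 95.4% over 2626 coding bases, with 122 coding mismatches. A pair of windows of 60 coding bases shows the range of this similarity, with bases that differ between the copies in capitals. The first window has 13 mismatches and comes from exon 5 of Csf2rb (chr15:78338893-78338952, plus strand) and exon 4 of Csf2rb2 (chr15:78294379-78294438, minus strand).
Csf2rb: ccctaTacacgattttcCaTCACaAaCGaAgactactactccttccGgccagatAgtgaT
Csf2rb2: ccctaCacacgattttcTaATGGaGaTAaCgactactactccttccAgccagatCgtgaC
The other window, which overlaps the first by 1 base at its end and lies in the same exons (chr15:78338834-78338893 in Csf2rb and chr15:78294438-78294497 in Csf2rb2), is the same in both copies.
Csf2rb and Csf2rb2: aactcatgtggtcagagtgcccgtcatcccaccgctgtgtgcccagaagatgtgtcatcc

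Of the windows of the read length along the transcripts, 329 of 4800 in Csf2rb (6.85%) and 329 of 4640 in Csf2rb2 (7.09%) were identical in the other copy. The longest identical stretch was 242 bases. Read pairs placed at more than 1 position were not counted, so pairs within such stretches were lost to both genes. Full-length reads from the other windows of these transcripts had no exact match in the other copy. Trimmed reads and exons outside the longest transcripts were not checked. Each gene also holds a microRNA gene within an exon on its own strand (Mir7676-1 in Csf2rb2 and Mir7676-2 in Csf2rb), and pairs on both were counted for neither. Of the other members, Csf3r shared 12 windows (0.355%) with 1 other gene, and Csf1, Il34 and Csf2ra shared none. Csf1r shared 16.8% of its windows with Hmgxb3, which overlaps its end on the opposite strand, and the counting used the strand of the reads.

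Per kilobase of exon the members spanned a wide range, and their order was the same at both ages. Csf1r stood at 1340 ± 300 normalized CPM per kb at 5 weeks and 1130 ± 67.1 at 24 weeks, rank 14 to 16 of 21226 protein-coding genes in each library. Csf3r followed at 144 ± 33.2 and 176 ± 3.31 (rank 119 to 189), then Csf1 at 29.9 ± 8.86 and 42.5 ± 5.35 and Csf2ra at 25.6 ± 8.06 and 30.0 ± 1.37. Csf1 and Csf2ra overlapped between libraries at 5 weeks (24.6 to 40.1 and 19.3 to 34.7) but not at 24 weeks (39.3 to 48.7 and 28.9 to 31.5). Csf2rb stood at 14.6 ± 2.18 and 15.4 ± 0.951, above Csf2rb2 at 6.94 ± 1.73 and 13.6 ± 1.14, and this gap depends on the annotated exon lengths, 7.277 kb for Csf2rb and 4.74 kb for Csf2rb2. Il34 was lowest at 0.855 ± 0.125 and 1.03 ± 0.187. Every other neighbouring pair in this order was separated in all libraries of an age, although Csf2rb and Csf2rb2 nearly met at 24 weeks (14.4 to 16.3 and 12.2 to 14.3).

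**Figure D1:**
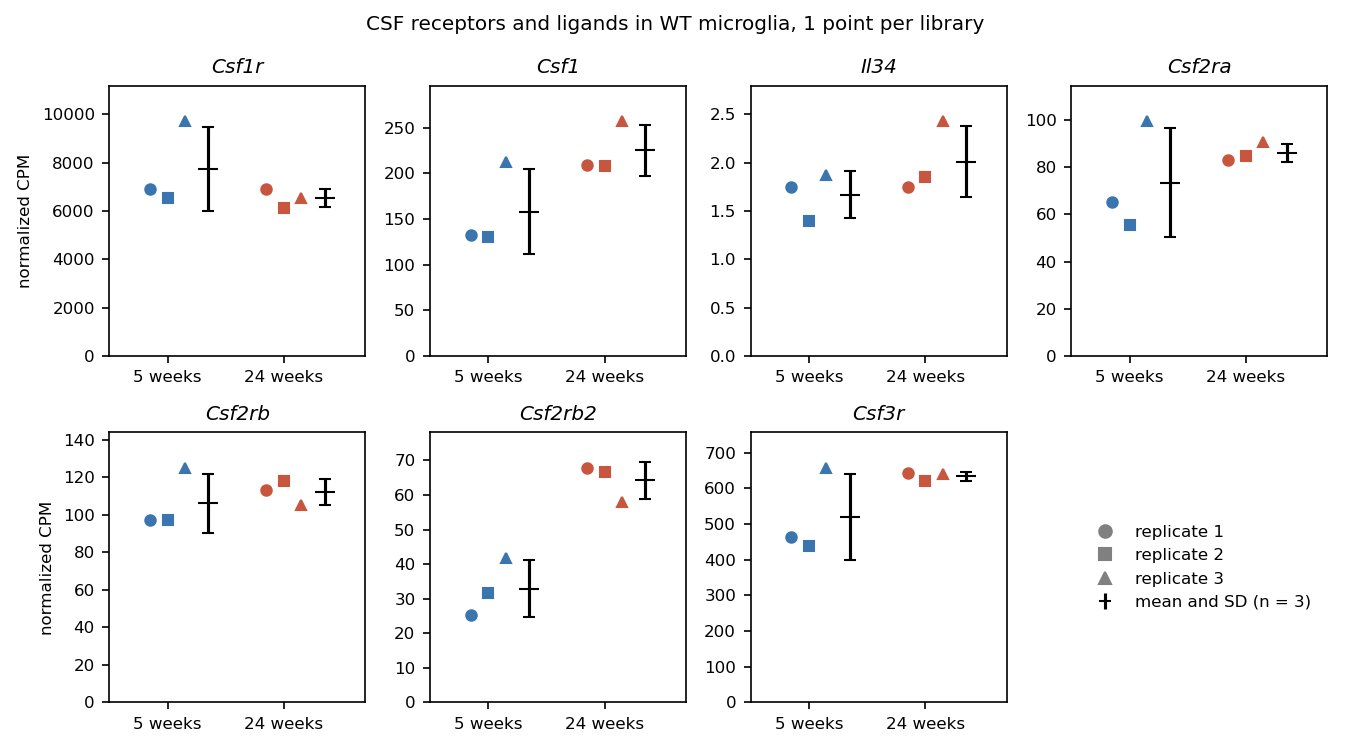
Normalized CPM (y axis, linear from 0, its own scale for each gene) of the 7 genes in the 3 libraries of each age, with the mean and SD beside the points. Csf2rb2 is the only gene whose 24-week points (58.0 to 67.9) all lie above its 5-week points (25.4 to 41.7), and the 5-week replicate 3 (triangle) is the highest 5-week point for every gene.

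Of the ligands, Csf1 (ENSMUSG00000014599, chr3:107741048-107760469, minus strand) had 132, 130 and 212 normalized CPM in the 5-week replicates 1 to 3 and 209, 208 and 257 in the 24-week replicates 1 to 3. The ages overlapped through a single library, the 5-week replicate 3, which lay above 2 of the 24-week libraries. The means were 158 ± 46.8 and 225 ± 28.3, a log2 fold change of 0.51 (SE 0.18, 95% interval 0.10 to 0.91) that did not pass (edgeR adjusted p = 0.0587). Without the 5-week replicate 3 the change was 0.79 and passed (adjusted p = 0.000427), and it passed under 7 of 15 alternative settings, with adjusted p from 0.000427 to 0.222. Astrocyte markers summed to 467 to 658 normalized CPM at 5 weeks and 381 to 444 at 24 weeks and oligodendrocyte markers to 1760 to 3000 and 1080 to 2940, and the part of these glia in the Csf1 values was not tested.

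Il34 (ENSMUSG00000031750, chr8:110741829-110805924, minus strand) was close to the limit of what was tested, with 56, 32 and 81 raw counts at 5 weeks and 24, 25 and 26 at 24 weeks. In normalized CPM these were 1.75, 1.4 and 1.87 at 5 weeks and 1.75, 1.85 and 2.43 at 24 weeks. The ages overlapped, with the highest value in the 24-week replicate 3. The log2 fold change was 0.24 (SE 0.27, adjusted p = 0.541 by edgeR), with an interval from -0.36 to 0.84, so a change of up to about 1.79-fold could not be detected or set aside at this depth. Gm15894 and Gm15895 overlap Il34 exons on the other strand, from which strand-specific counting separates them. Per kilobase, Csf1 exceeded Il34 by 28.0, 34.3 and 42.0 times at 5 weeks and by 44.2, 41.7 and 39.3 times at 24 weeks. This ratio overlapped between the ages through the 5-week replicate 3 and the 24-week replicates 2 and 3.

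Csf1r (ENSMUSG00000024621, chr18:61100598-61132149, plus strand) had 6910, 6540 and 9710 normalized CPM at 5 weeks and 6920, 6140 and 6520 at 24 weeks. The 5-week replicate 3 stood above the other 5 libraries, which lay between 6140 and 6920. The means were 7720 ± 1730 and 6530 ± 387, and the log2 fold change of -0.24 (SE 0.17, 95% interval -0.63 to 0.14) did not pass (edgeR adjusted p = 0.324). Without the 5-week replicate 3 it was -0.03 (95% interval -0.27 to 0.20, adjusted p = 0.813). When each library's trends on length and GC content of transcripts were removed it was -0.39 (adjusted p = 0.0734), and it passed under none of the 15 alternatives (unadjusted p = 0.193 for all 6 libraries, and 0.0297 with the trends removed). Border-associated macrophages also use CSF1R, their summed markers lay between 1010 and 1340 normalized CPM at 5 weeks and between 515 and 618 at 24 weeks, and their part in the Csf1r values was not tested.

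Among the receptors of GM-CSF and IL-3, Csf2ra (ENSMUSG00000059326, chr19:61223957-61228429, minus strand), the GM-CSF receptor alpha chain, had 65.3, 55.5 and 99.5 normalized CPM at 5 weeks and 83.0, 84.8 and 90.5 at 24 weeks. The 5-week replicate 3 exceeded every 24-week library, and the other 5-week libraries lay below all of them. The log2 fold change was 0.23 (SE 0.18, 95% interval -0.17 to 0.63) and did not pass (adjusted p = 0.377 by edgeR). It was 0.52 and passed without the 5-week replicate 3 (adjusted p = 0.00205).

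Csf2rb, the common beta chain, had 97.1, 97.4 and 125 normalized CPM at 5 weeks and 113, 118 and 105 at 24 weeks. The ages overlapped, again with the highest value in the 5-week replicate 3. The log2 fold change was 0.07 (SE 0.12, 95% interval -0.20 to 0.34, adjusted p = 0.69 by edgeR). It was -0.10 with the length and GC trends removed and 0.21 without the 5-week replicate 3, and neither value passed (adjusted p = 0.393 and 0.0552).

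Csf2rb2, the IL-3-specific beta chain, had 25.4, 31.6 and 41.7 normalized CPM at 5 weeks and 67.9, 66.8 and 58.0 at 24 weeks. Every 24-week library exceeded every 5-week library. The means were 32.9 ± 8.18 and 64.2 ± 5.41, a log2 fold change of 0.96 (SE 0.17, 95% interval 0.60 to 1.33) that passed (edgeR adjusted p = 0.00176). It passed under all 15 alternatives, with log2 fold changes from 0.80 to 1.19 and adjusted p from 2.49e-06 to 0.0145. Summed endothelial and mural cell markers were also higher at 24 weeks, while those of microglia and border-associated macrophages were lower. The part of other cell types in the Csf2rb2 values was not tested.

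The split of counts between the beta chain genes was also compared between the ages. Csf2rb2 held 814 of 3919, 722 of 2948 and 1803 of 7202 counts of the pair at 5 weeks, which are 20.8% (Wilson 95% interval 19.5 to 22.1), 24.5% (23 to 26.1) and 25% (24.0 to 26.0). At 24 weeks it held 930 of 2478, 904 of 2504 and 621 of 1740, which are 37.5% (35.6 to 39.5), 36.1% (34.2 to 38.0) and 35.7% (33.5 to 38.0). These intervals cover counting error only, and no interval of one age reached the other age. The mean share was 23.4 ± 2.32% at 5 weeks and 36.4 ± 0.966% at 24 weeks, a difference of 13 percentage points. An exact permutation test over libraries gave a two-sided p of 0.1, which is the lowest value possible with 3 libraries on each side. The difference stayed between 11.7 and 13.8 percentage points when any single library was left out.

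Counts of the pair summed into 1 row had a log2 fold change of 0.34 (SE 0.13, 95% interval 0.05 to 0.63), which did not pass (edgeR adjusted p = 0.0741). The sum, which does not depend on the copy a pair was assigned to, was 139 ± 23.7 normalized CPM at 5 weeks and 176 ± 12 at 24 weeks. It passed without the 5-week replicate 3 (0.50, edgeR adjusted p = 0.00139). In the setting with length and GC trends removed, no trend was taken from the summed row itself. Its values there (0.34, edgeR adjusted p = 0.042) therefore do not show the sum with the trends removed.

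**Figure D2:**
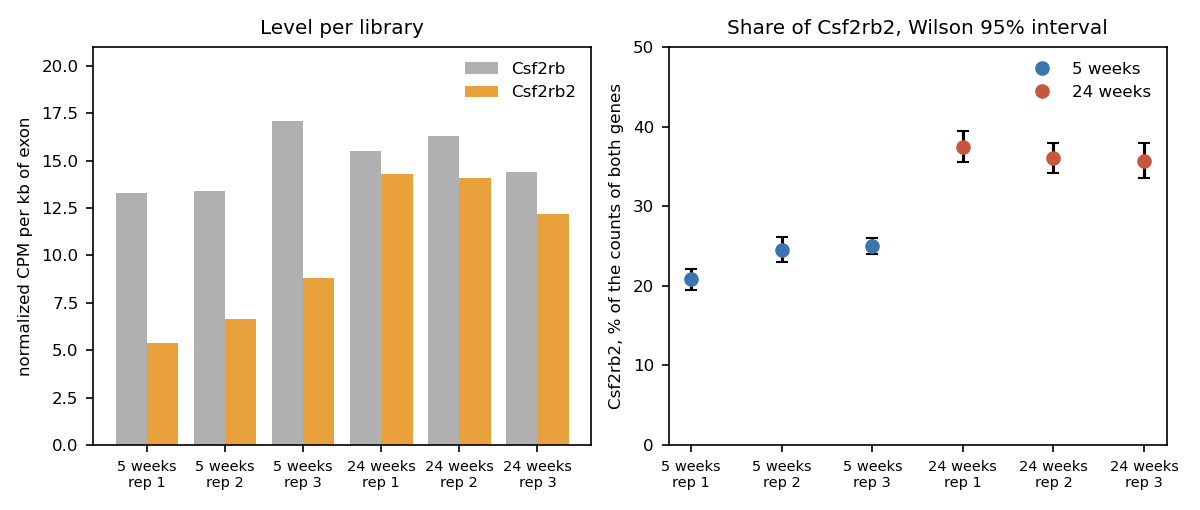
Left, normalized CPM per kb of exon (y axis, linear from 0) of Csf2rb (grey bars) and Csf2rb2 (orange bars) in each of the 6 libraries. Right, the share of the counts of both genes that fell on Csf2rb2 (y axis, percent) with Wilson 95% intervals, which is 20.8 to 25% in the 5-week libraries and 35.7 to 37.5% in the 24-week libraries.

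Csf3r (ENSMUSG00000028859, chr4:126024550-126044440, plus strand) had 464, 438 and 658 normalized CPM at 5 weeks and 643, 621 and 640 at 24 weeks. The 24-week libraries were close to each other, and the 5-week replicate 3 lay above all of them. The means were 520 ± 120 and 634 ± 11.9, with a log2 fold change of 0.29 (SE 0.15, 95% interval -0.05 to 0.62) that did not pass (adjusted p = 0.187 by edgeR). Without the 5-week replicate 3 it was 0.50 and passed (adjusted p = 0.00121). Summed neutrophil markers (10 genes) ranged from 108 to 310 normalized CPM at 5 weeks and from 68.7 to 240 at 24 weeks, each lowest in replicate 2, where Csf3r had 438 and 621. The 3 most abundant were S100a9 at 67.2 ± 32.6 normalized CPM at 5 weeks and 58.2 ± 28.0 at 24 weeks, S100a8 at 58.4 ± 28.5 and 35.2 ± 18.9, and Ngp at 27.5 ± 13.4 and 29.1 ± 17.4, and none of the 10 was at 0. The 8 neutrophil markers tested had adjusted p from 0.125 to 0.921, and their part in the Csf3r values was not tested.

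**Figure D3:**
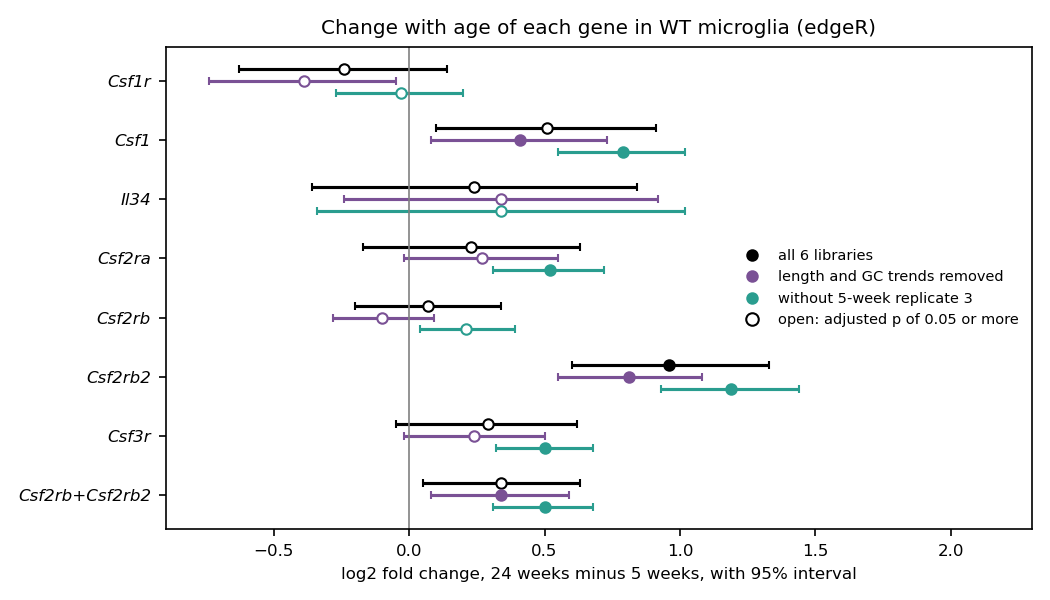
Log2 fold change of each gene and of the summed pair (x axis, 24 weeks minus 5 weeks) with its 95% interval, for all 6 libraries (black), with length and GC trends removed (purple) and without the 5-week replicate 3 (green), with filled points where the edgeR adjusted p was under 0.05. Csf2rb2 is filled in all settings drawn (0.96, 0.81 and 1.19), while Csf2ra and Csf3r are filled only without the 5-week replicate 3 (0.52 and 0.50). For the summed pair, no trend was taken from its own row in the purple setting.

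The 5-week replicate 3, singled out after its values were seen, was the highest 5-week library for 7 of 7 members, against 40.7% of all genes tested. Relative to the mean of the 5-week replicates 1 and 2 it was 1.65-fold for Csf2ra, 1.62-fold for Csf1, 1.46-fold for Csf2rb2, 1.46-fold for Csf3r, 1.44-fold for Csf1r, 1.28-fold for Csf2rb and 1.19-fold for Il34, while the median over all genes was 0.996. At least 1.3-fold was reached by 5 of 7 members and by 15.9% of all genes.

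In this library the fold followed GC content. Across 13857 protein-coding genes, which are not independent replicates, Spearman's rho with the GC content of the longest transcript was 0.612, and the median fold was 1.28 in the tenth of genes with the highest GC content and 0.747 in the tenth with the lowest. The members had a GC content of 53.3 to 57.8%, above the median of 49.7% of protein-coding genes. With length and GC trends removed, rho was 0.027 and the folds were 1.41 for Csf1, 1.38 for Csf2ra, 1.3 for Csf2rb2, 1.29 for Csf3r, 1.24 for Csf1r, 1.12 for Csf2rb and 1.01 for Il34. Before rounding, 2 of 7 members (Csf1 and Csf2ra) were then at least 1.3-fold, against 9.89% of all genes, and Csf2rb2 lay just below that limit. With the trends removed 35.7% of all genes passed between the ages. Csf1 then passed (0.41, edgeR adjusted p = 0.0496), and Csf2ra (0.27, adjusted p = 0.133) and Csf3r (0.24, adjusted p = 0.144) did not.

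**Figure D4:**
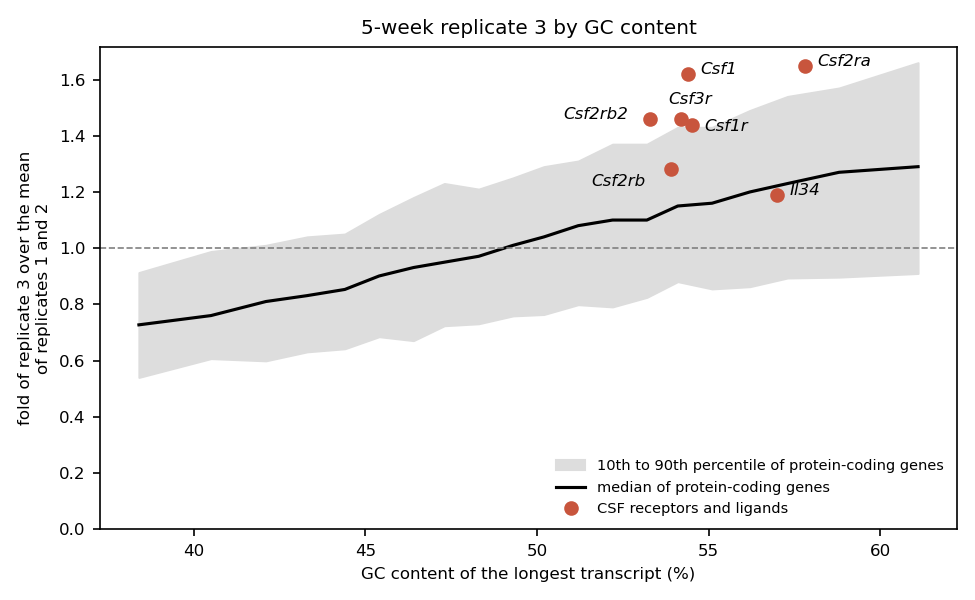
Fold of the 5-week replicate 3 over the mean of the 5-week replicates 1 and 2 (y axis, linear from 0) against the GC content of the longest transcript (x axis, percent), with the median (line) and the span from the 10th to the 90th percentile (grey) of protein-coding genes. The 7 members (points, GC content 53.3 to 57.8%) have folds from 1.19 to 1.65.

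Over the 6 libraries the members varied together to different degrees, which is a description of points that share their libraries and depth. On log2 values (normalized CPM plus 0.5), Pearson's r was 0.96 between Csf2ra and Csf3r, 0.95 between Csf1 and Csf3r and 0.91 between Csf1 and Csf2ra. Csf1r correlated with Csf2rb at 0.53, with Csf2ra at 0.46 and with Csf3r at 0.31. Its values were 0.14 with Csf1, 0.03 with Il34 and -0.21 with Csf2rb2. Csf2rb and Csf2rb2 correlated at 0.62, lower than Csf2rb with Csf2ra or with Csf3r (0.83 each).

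The protein-coding genes with the most similar pattern were taken from about 9568 candidates per member, over the same 6 libraries, so that very high values arise for every member. For Csf2rb2 they were Fam193a (r = 0.9986; 68.2, 76.6 and 97.0 normalized CPM at 5 weeks and 141, 136 and 125 at 24 weeks) and Prrc2b (0.9984). For Csf1r they were Tpra1 (0.9978) and Samm50 (0.9942), and for Csf3r Tmem104 (0.9985) and Dhx8 (0.9965). Csf1 was most like Pik3cg (0.9943) and H2-Ab1 (0.9911), a chain of MHC class II, and Csf2ra most like Ptprj (0.9944) and Ift140 (0.9936). Csf2rb was most like Map3k14 (0.9901) and Prkaca (0.99), and Il34 most like Rbm26 (0.989) and Adnp2 (0.9871).

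The signalling mediators downstream of CSF1R moved in both directions. Of 26 tested, 6 rose, 7 fell and 13 did not pass, with a median log2 fold change of -0.02 against 0.00 over all genes. Among all genes tested, 15.5% rose and 13.3% fell. Among those that rose, the adaptor Grb2 went from 64.9 ± 8.16 to 142 ± 7.05 normalized CPM (log2 fold change 1.13, edgeR adjusted p = 9.63e-05), the Ras exchange factor Sos1 from 38.3 ± 2.87 to 79.3 ± 2.24 (1.05, 7.1e-05), the kinase subunit Pik3cb from 54.9 ± 1.95 to 100 ± 5.53 (0.87, 0.00017) and the ubiquitin ligase Cblb from 21.2 ± 1.26 to 38.8 ± 0.991 (0.87, 0.00028). Dok1, an adaptor that restrains Ras signalling, fell from 64.0 ± 7.0 to 30.0 ± 4.08 (-1.09, 0.000242). Others that passed, named after their values were seen, were Mapk3 (0.93) and Cbl (0.84), which rose, and Dok2 (-1.36), the adaptor Tyrobp (-0.60), Fyn (-0.51), the phosphatase Ptpn6 (-0.46) and Sla (-0.38), which fell. The most abundant of the list did not pass, with log2 fold changes of -0.16 for Inpp5d, 0.07 for Lyn and -0.19 for Pik3r1. Without the 5-week replicate 3, where 37.9% of all genes passed in either direction, 9 rose and 7 fell. Without the 24-week replicate 2, 4 fell.

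Of 8 transcription factors known to act at the Csf1r gene, 2 rose (15.5% of all genes rose) and 6 did not pass, with a list median of 0.19. Runx1 was among those that rose (log2 fold change 0.93, edgeR adjusted p = 0.000848). Runx1 had 137, 130 and 186 normalized CPM at 5 weeks and 281, 301 and 281 at 24 weeks, without overlap, as for 45.1% of all genes. Spi1, which encodes PU.1, a factor that myeloid cells need, was named after its values were seen and had 149, 139 and 192 against 168, 150 and 171 (0.02, adjusted p = 0.908). Only 1 gene of this list rose when the 5-week replicate 1 or 2 or the 24-week replicate 1 or 2 was left out, and 4 rose without the 5-week replicate 3.

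PU.1 binds purine-rich sites with the core GAGGAA, so the promoters (300 bases, 250 before and 50 after the RefSeq start, GRCm38.p6) were searched for it on both strands. Of the 7 members, the search covered Csf1, Csf2ra, Csf2rb2 and Csf3r. Csf1r was left out of the search, and no RefSeq promoter was at hand for Il34 and Csf2rb. The core was held by 28.3% of 32851 promoters of this length. It occurred 2 times in Csf2rb2, 2 times in Csf2ra, 1 time in Csf3r and 0 times in Csf1. The promoter of Csf2rb2 (chr15:78305672-78305971, minus strand), the member that rose, is shown with the core in capitals, here as its reverse complement TTCCTC, and that of Csf2ra (chr19:61228369-61228668, minus strand) for its adjoining copies of GAGGAA. A match of these letters is a description of the sequence only.
Csf2rb2: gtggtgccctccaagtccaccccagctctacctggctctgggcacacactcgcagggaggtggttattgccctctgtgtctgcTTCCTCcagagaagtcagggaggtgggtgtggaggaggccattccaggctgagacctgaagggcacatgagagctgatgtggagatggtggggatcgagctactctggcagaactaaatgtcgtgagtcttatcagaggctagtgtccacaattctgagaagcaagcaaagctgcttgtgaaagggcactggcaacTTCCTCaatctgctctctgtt
Csf2ra: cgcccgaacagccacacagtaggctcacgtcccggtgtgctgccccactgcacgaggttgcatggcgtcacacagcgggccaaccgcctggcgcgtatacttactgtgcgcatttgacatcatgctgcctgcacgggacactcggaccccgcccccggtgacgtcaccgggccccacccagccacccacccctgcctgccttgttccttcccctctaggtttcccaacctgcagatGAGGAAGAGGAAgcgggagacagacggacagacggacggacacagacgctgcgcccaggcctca

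Of 6 genes for other IL-34 receptors and for proteins that shed CSF1R from the cell surface, Adam10, a membrane protease, rose from 263 ± 29.7 to 406 ± 19.2 normalized CPM (log2 fold change 0.63, edgeR adjusted p = 0.00289). The sheddase Adam17 had -0.24 (adjusted p = 0.118) and Ptprz1, a neural receptor for IL-34, had -0.12 (adjusted p = 0.664). Without the 5-week replicate 3, where 37.9% of all genes passed in either direction, 2 of these genes rose and 1 fell.

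The soluble ligands of the GM-CSF, IL-3, IL-5 and G-CSF receptors were hardly counted in these libraries. Csf2 (GM-CSF) and Il3 had 0 counts in all 6 libraries. By counting error only (3 counts per library), this allows up to 0.0646 to 0.129 CPM at 5 weeks and 0.221 to 0.288 at 24 weeks. These limits are scaled to gene totals without TMM factors. Il5 had 1 count, Csf3 (G-CSF) 4 counts and Il5ra, the IL-5 receptor alpha chain, 19 counts over all libraries. Il3ra, the alpha chain that pairs with the Csf2rb2 product, was the only gene of this list tested, at 2.13, 1.66 and 3.03 normalized CPM at 5 weeks and 4.01, 2.81 and 5.05 at 24 weeks. The ages overlapped in 1 library each, and the log2 fold change of 0.77 (SE 0.30) did not pass (adjusted p = 0.0737 by edgeR). It passed without the 5-week replicate 3, with total counts only, with the replicate number as a block and with length and GC trends removed. No gene of this list rose under the other alternatives.

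Of 11 genes of the JAK-STAT pathway below these receptors, 2 rose (15.5% of all genes rose) and 9 did not pass. The median log2 fold change was -0.05. Cish, an inhibitor induced by STAT5, had 3.69, 4.82 and 5.89 normalized CPM at 5 weeks and 6.57, 10.5 and 11.6 at 24 weeks (0.98, SE 0.25, edgeR adjusted p = 0.0128). Socs2, an inhibitor of the same family, had 3.66, 3.15 and 2.93 against 5.47, 5.1 and 6.73 (0.82, SE 0.21, adjusted p = 0.0125). Neither gene overlapped between the ages, as for 45.1% of all genes, and both were among the least abundant of the list. Among the genes that did not pass, the transcription factor Stat3 had -0.04 (edgeR adjusted p = 0.828), the inhibitor Socs3 -0.37 (0.132) and the kinase Pim1 -0.43 (0.0548). The count of 2 fell to 1 without the 5-week replicate 1 or the 24-week replicate 2, and to 0 without the 24-week replicate 3.

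Of 7 genes for the other class III receptor kinases, the family of CSF1R, and their ligands, 4 rose and 3 did not pass. The median log2 fold change was 0.45, and 15.5% of all genes rose. Pdgfrb, the PDGF receptor of pericytes, whose gene ends 15536 bases before Csf1r starts, had 7.81, 9.76 and 11.3 normalized CPM at 5 weeks and 22.2, 29.3 and 23.9 at 24 weeks (1.38, SE 0.17, edgeR adjusted p = 0.000245). It was also 1 of the mural cell markers, which as a list rose from 162 to 195 up to 314 to 349, and the part of mural cells in its value was not tested. The others that rose were Kit (0.78, adjusted p = 0.0468), its ligand Kitl (0.53, 0.00792) and Pdgfa (0.40, 0.0264). The count was 2 without the 5-week replicate 1 or 2 or the 24-week replicate 1 or 2.

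**Figure D5:**
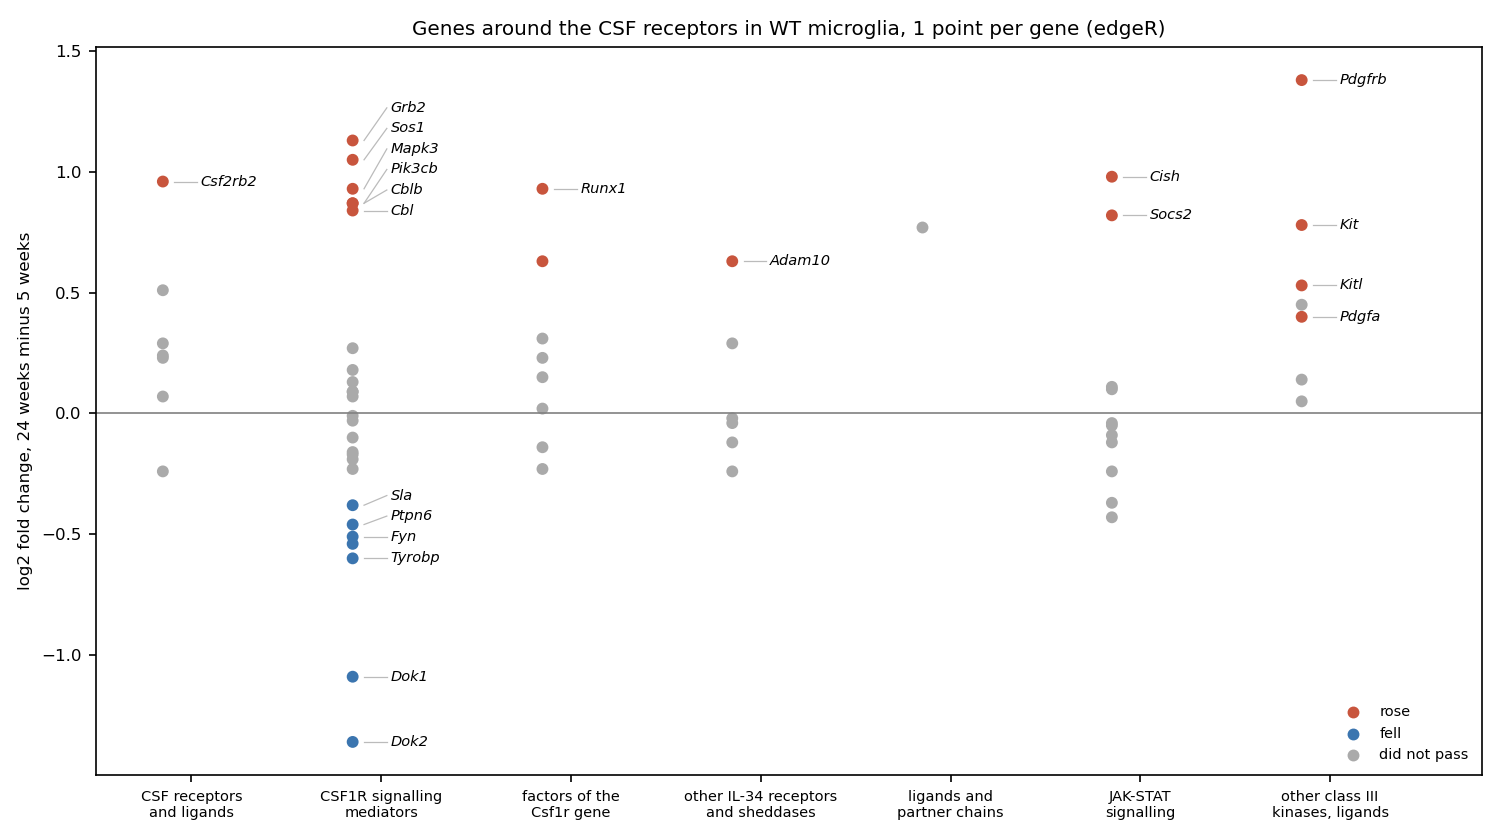
Log2 fold change (y axis, 24 weeks minus 5 weeks, edgeR) of every tested gene of the 7 members and of the 6 pathway lists, 1 point per gene, with genes that rose in red, that fell in blue and that did not pass in grey, and with names beside most of the genes that passed. The mediators of CSF1R signalling lie on both sides of 0 (6 rose, 7 fell), from -1.36 for Dok2 to 1.13 for Grb2.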

How the data were processed

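The data are RNA-seq counts of microglia, with 3 WT female mice per age (5 and 24 weeks). The authors trimmed the read pairs and used TopHat2 2.0.13 for alignment to GRCm38 and HTSeq 0.6.1 for counting uniquely placed pairs on Ensembl release 75 exons, on the reverse strand (alignment quality of at least 10). The deposited tables hold unnormalized counts of 38924 genes, and 5 rows that name no gene were left out (60.6 to 65.8% of the counts of a table). Of the gene, ambiguous and no-exon counts together, those on no exon were 40.0 to 41.8% at 5 weeks and 48.7 to 54.9% at 24 weeks. The ages did not overlap in this share, and its part in the changes was not tested. The authors' own test of genotype was DESeq2 1.6.3. GENCODE mouse release 21 matched 37607 identifiers and gave symbols, positions, exon lengths (all exons of a gene merged) and sequences, and promoters came from RefSeq (GRCm38.p6).

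The ages were compared in R 4.3.3 with edgeR 4.0.16 (TMM, edgeR's default filter by age, which kept 16157 genes, a quasi-likelihood model of age alone, Benjamini-Hochberg adjustment over all genes tested). Standard errors were derived from the F statistic of each gene. Of all genes, 2505 rose and 2141 fell. The replicates are separate mice, and 1 library per mouse means that mouse and preparation vary together.

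The members and the lists were chosen with earlier results of these data known. All members are named. From each pathway list the 5 genes with the smallest p and the 3 with the highest mean may be named, from each marker list the 3 most abundant, and for each member the 2 protein-coding genes of highest Pearson r. Alternatives were DESeq2's size factors, total counts only, DESeq2 1.42.0, limma-voom (limma 3.58.1), no filter, at least 50 counts in every library, the replicate number as a block, length and GC trends removed as offsets (splines of 5 degrees of freedom), thinned 5-week libraries and each library left out. Some genes of the lists enter the counts but are not reported here by name.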

Additional observations from a re-analysis of the deposited data

How the results depend on the processing

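Of 119 alternatives for the members and the summed pair, 105 kept their direction and side of the threshold, 12 newly passed and 2 reversed. Csf1, at 0.51 and not passing, passed with total counts only (0.61, adjusted p = 0.0217 by edgeR), DESeq2 (0.50, 0.0366), limma-voom (0.54, 0.0465), no filter (0.47, 0.0154), trends removed (0.41, 0.0496) and the replicate block (0.54, 0.0122). The summed pair passed with total counts only (0.44, 0.0197). It is also counted as passing in the setting with trends removed (0.34, 0.042), although no trend was taken from its own row. Csf2rb turned to -0.10 with trends removed (edgeR adjusted p = 0.393) and to 0.00 without the 5-week replicate 1 (0.999). Leaving out 1 library gave log2 fold changes of 0.37 to 0.79 for Csf1, -0.36 to -0.03 for Csf1r, 0.05 to 0.52 for Csf2ra, 0.00 to 0.21 for Csf2rb, 0.80 to 1.19 for Csf2rb2, 0.16 to 0.50 for Csf3r, 0.09 to 0.34 for Il34 and 0.24 to 0.50 for the sum. Genes that rose numbered 1638 to 3225 and genes that fell 1181 to 2817 when 1 library was left out. Trends removed gave 3332 falls against 2141, and 42.3% of calls were rises, against 53.9%. With total counts only, 68.8% were rises and the median of all genes was 0.10. The causes were not tested. The replicate block changed no other call of a member or of the sum. After the mean of each age was subtracted from each gene's log2 values, same-numbered libraries correlated at 0.0640, 0.0950 and -0.0484. The numbers were therefore not taken as pairs. Il34, with 24 to 81 counts, could not be tested with at least 50 counts in every library. Of 180 list counts, 153 stayed within 1.5 times and 27 moved. With 1 lane per age, no setting separates lane from age.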
